A study of Mus musculus with 6 samples.

Results

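The fatty acid oxidation and ketone genes examined here are 34 of the 23183 gene symbols measured in brain microvessels of TEKCRIF1 mice. They were chosen by symbol and function, with no measured value in the rule. They comprise 5 acyl-CoA synthetases, 5 genes of the carnitine shuttle, 5 acyl-CoA dehydrogenases, 5 genes of the remaining steps of the β-oxidation cycle, 3 auxiliary enzymes for unsaturated chains, 3 genes of electron transfer, 3 ketone body enzymes, 3 genes of uptake and binding and 2 PPAR receptors. All 34 had a mean of at least 1 FPKM and were tested. FPKM scales the fragments of a gene to its exon length and to the mapped total of its library.

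RNA from cerebral microvessels was sequenced in 3 WT and 3 TEKCRIF1 KO mice labelled C57BL/6, with 1 library per mouse. The KO mice were TEK-cre, Crif1 flox/flox, so that *Crif1* (*Gadd45gip1*), which encodes a protein of the mitochondrial ribosome, was deleted wherever Cre was active. The WT mice were TEK-cre, Crif1+/+, and both groups therefore carried the same Cre transgene. Tek is active in endothelial cells and also in some blood-forming cells, while the microvessel fraction holds further cell types in which the gene stays intact. The age and sex of these mice are not given in the sources used here, and no treatment was given. Values listed for a group follow the replicate numbers 1, 2 and 3 of the sample titles. The column headers of the deposited values carry other numbers, which were not used.

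Fatty acids are bound by carrier proteins, joined to coenzyme A by acyl-CoA synthetases and passed into mitochondria as carnitine esters. There, a cycle of dehydrogenation, hydration, a further dehydrogenation and thiolysis releases acetyl-CoA, and the electron transfer flavoprotein carries electrons of the first dehydrogenation to the respiratory chain. Ketone bodies, made mainly in liver, are taken up by brain and turned back into acetyl-CoA. Brain endothelial cells are known for transporting both fuels, and PPAR receptors are fatty acid sensors that control many of these genes in tissues such as liver and heart.

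*Gadd45gip1* (chromosome 8, 84831522 to 84835482, plus strand, mm10) was measured at 18.8, 15.3 and 16.5 FPKM in WT mice and at 10.8, 7.54 and 10.4 FPKM in KO mice. Every KO library was below every WT library. The log2 fold change on log2(FPKM + 1) was −0.77 (SE 0.22; limma, unadjusted p = 0.00534, adjusted p = 0.841; exact permutation p = 0.1, the smallest that 3 mice against 3 allow). Estimated depth ranged from 8900000 to 11500000 fragments in WT libraries and from 6400000 to 11800000 in KO libraries, and 3 fragments on a 1 kb transcript corresponded to 0.254 to 0.469 FPKM. Endothelial markers summed to 1110 to 1558 FPKM in WT and 997 to 1344 in KO libraries, pericyte markers to 847 to 1352 and 884 to 1008, and astrocyte markers to 604 to 706 and 451 to 507. Of the 12 endothelial markers, 4 had a higher mean of log2(FPKM + 1) in KO mice, and 1 in each direction, *Emcn* (KO higher) and *Cdh5* (KO lower), did not overlap between groups. Of the 9 pericyte markers, 1 had a higher mean, and 4 had every KO library below every WT library. Of the 8 astrocyte markers, 0 had a higher mean, and 2, *Gfap* and *Gja1*, had every KO library below every WT library. Microglia markers summed to 144 to 161 FPKM in WT and 123 to 142 FPKM in KO libraries, and 1 of the 6 had a higher mean. The astrocyte and microglia sums thus did not overlap between groups, with KO lower. In such bulk samples, fewer cells of a type and less RNA per cell cannot be told apart. Choroid plexus markers stood apart, as given beside the results they moved with.

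None of the 34 genes passed the adjusted threshold of 0.05 (limma with Benjamini-Hochberg adjustment), as was true of 0 (0%) of the 14247 genes tested. At an unadjusted p under 0.05, 1 member, *Fabp4*, was higher in KO mice and 0 were lower. *Fabp4* passed the filter on low values only through the KO group (WT mean 0.557 FPKM, KO mean 4.90 FPKM), so its call is given as a description. The background at that threshold was 2.77% of genes higher and 3.11% lower. In direction alone, 23 members had a higher mean of log2(FPKM + 1) in KO mice and 11 a lower one. Their median log2 fold change was 0.12, against −0.01 for all genes tested, of which 49.2% were higher. The lean to higher values was lost when KO 3 was left out, with 17 members higher and 17 lower and a median of 0.02. It remained when any other single library was left out. Without WT 1 or KO 2, 27 members were higher, with medians of 0.18 and 0.32, and without WT 3, 21 were higher, with a median of 0.08. *Oxct1* was the single member in which the KO and WT libraries did not overlap, with KO higher, against a background of 5.37% of genes. No member had every KO library below every WT library, against 5.7% of genes.

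**Figure D1:**
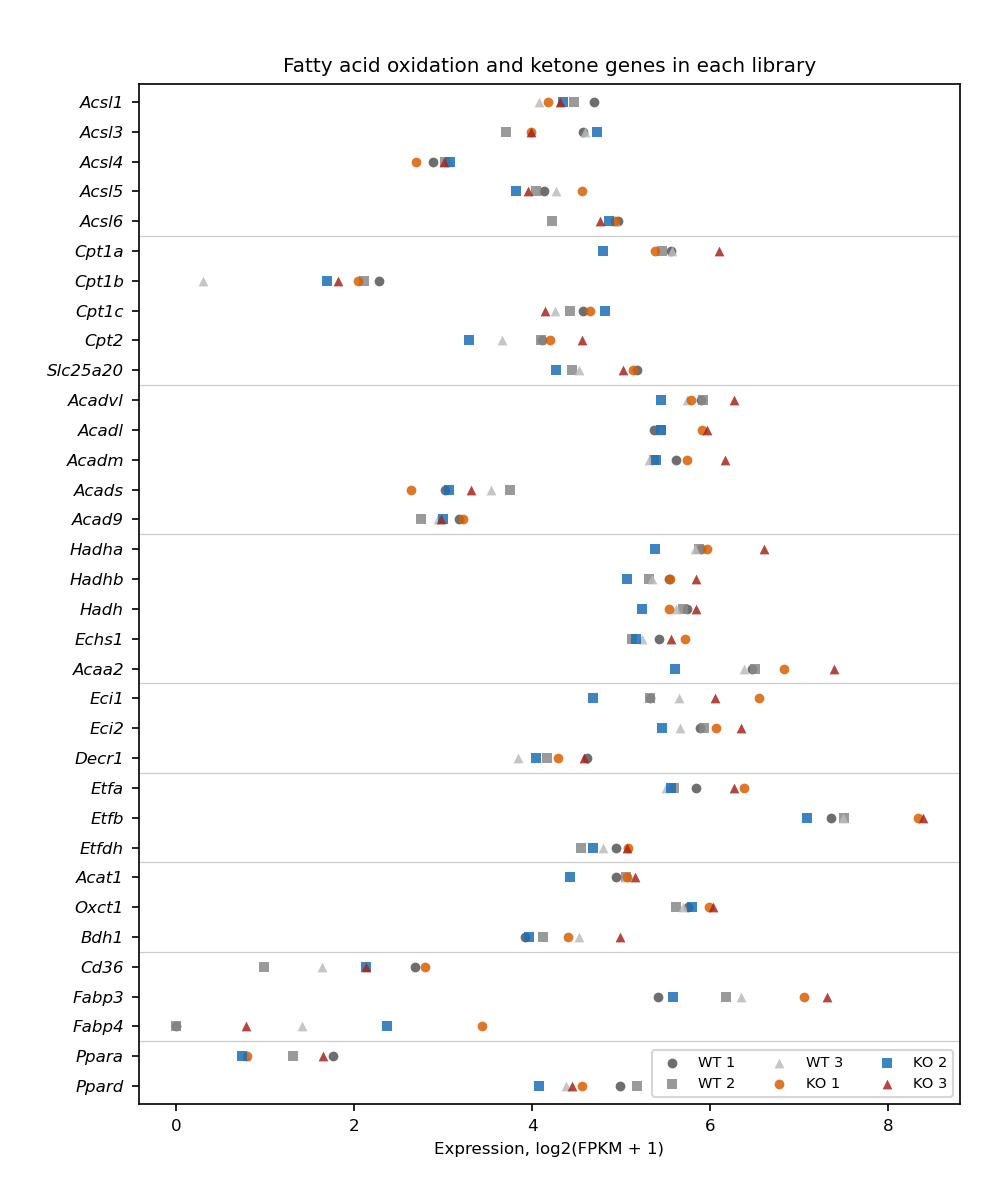
Expression of the 34 genes in each library as log2(FPKM + 1), with 1 row per gene, grey symbols for WT 1 to WT 3, colored symbols for KO 1 to KO 3, and horizontal lines between the functional steps. *Etfb* lies farthest right in all 6 libraries, and KO 2 (blue squares) is the lowest of the 6 libraries in 15 genes.

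As a group these genes were well expressed in the microvessels. The median of their mean levels over the 6 libraries was 27.6 FPKM, against 9.55 FPKM for all genes tested. Among them, 27 lay above the median of all tested genes, and 9 lay in the top 10%. In WT mice the highest means were those of *Etfb* (173 FPKM), *Acaa2* (86.3 FPKM), *Fabp3* (64.4 FPKM) and *Hadha* (57.4 FPKM), and the lowest were those of *Cpt1b* (2.47 FPKM), *Ppara* (1.54 FPKM) and *Fabp4* (0.557 FPKM). FPKM values are per length, so these levels can be compared between genes. Replicates of the KO group were more dispersed. The SD of log2(FPKM + 1) was larger in KO than in WT mice for 25 of the 34 genes (73.5%), against 64.4% of all genes tested, with a median SD of 0.39 in KO and 0.18 in WT mice for the 34 genes and of 0.34 and 0.24 for all genes.

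The 3 genes of electron transfer had positive log2 fold changes with a median of 0.42, which ranged from 0.27 without KO 3 to 0.68 without KO 2, and their promoters are shown here because *Etfb* and *Etfdh*, together with *Acadm*, hold 3 of the 4 member windows with an NRF1 core. The *Etfa* window, printed with them, holds none of the 4 motifs searched. *Etfb* encodes the β subunit of the electron transfer flavoprotein and *Etfdh* the dehydrogenase that hands its electrons to ubiquinone. *Acadm* encodes the medium-chain acyl-CoA dehydrogenase, a classical target of PPARα and estrogen-related receptors. The last window, that of *Hadhb*, is shown because *Hadhb* and *Hadha*, which encode the β and α subunits of the mitochondrial trifunctional protein, are transcribed in opposite directions from start sites 273 bases apart, and their windows share 228 bases. Windows run from 250 bases before to 50 bases after the start site, 5′ to 3′ on the gene's own strand, from RefSeq on GRCm38.p6. Capitals mark matches to the motifs described after them. The windows are chr7:43443822-43444121 (plus strand) for *Etfb*, chr9:55512194-55512493 (minus strand) for *Etfa*, chr3:79628718-79629017 (minus strand) for *Etfdh*, chr3:153944594-153944893 (minus strand) for *Acadm* and chr5:30155003-30155302 (plus strand) for *Hadhb*.
Etfb: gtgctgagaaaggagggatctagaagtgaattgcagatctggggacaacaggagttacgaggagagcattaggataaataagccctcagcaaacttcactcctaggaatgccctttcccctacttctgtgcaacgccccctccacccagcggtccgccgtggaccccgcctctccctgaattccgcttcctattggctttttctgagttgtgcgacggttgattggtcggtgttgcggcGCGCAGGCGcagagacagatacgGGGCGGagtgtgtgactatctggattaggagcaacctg
Etfa: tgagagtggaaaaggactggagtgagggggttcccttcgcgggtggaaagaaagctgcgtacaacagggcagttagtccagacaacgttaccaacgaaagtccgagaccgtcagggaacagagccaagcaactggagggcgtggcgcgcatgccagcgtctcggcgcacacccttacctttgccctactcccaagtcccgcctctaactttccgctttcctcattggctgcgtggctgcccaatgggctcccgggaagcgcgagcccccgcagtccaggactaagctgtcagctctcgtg
Etfdh: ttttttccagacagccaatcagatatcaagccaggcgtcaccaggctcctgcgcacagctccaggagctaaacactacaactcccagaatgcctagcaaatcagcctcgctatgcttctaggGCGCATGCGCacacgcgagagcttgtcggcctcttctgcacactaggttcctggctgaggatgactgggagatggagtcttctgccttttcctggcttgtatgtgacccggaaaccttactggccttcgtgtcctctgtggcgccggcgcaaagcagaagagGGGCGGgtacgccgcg
Acadm: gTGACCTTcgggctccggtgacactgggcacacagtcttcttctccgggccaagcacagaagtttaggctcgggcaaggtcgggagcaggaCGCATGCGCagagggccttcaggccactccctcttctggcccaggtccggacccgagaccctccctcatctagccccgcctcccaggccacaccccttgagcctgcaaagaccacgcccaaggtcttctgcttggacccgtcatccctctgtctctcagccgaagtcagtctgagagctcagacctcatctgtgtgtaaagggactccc
Hadhb: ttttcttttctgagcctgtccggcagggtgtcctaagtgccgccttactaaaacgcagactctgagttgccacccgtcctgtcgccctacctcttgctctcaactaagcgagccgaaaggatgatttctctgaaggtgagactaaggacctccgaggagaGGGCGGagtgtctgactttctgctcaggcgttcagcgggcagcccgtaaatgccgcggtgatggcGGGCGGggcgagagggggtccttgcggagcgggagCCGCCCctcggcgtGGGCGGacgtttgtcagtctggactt

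RefSeq windows were matched for 28 of the 34 genes, with 32 windows because some genes have several start sites. *Cpt1b*, *Acad9*, *Acaa2*, *Decr1*, *Acat1* and *Fabp4* had no match by symbol in the set of windows used. Each motif was searched on both strands. The nuclear receptor hexamer AGGTCA was found in 7 of 32 member windows (21.9%) and in 16.3% of all 32851 windows. Its extended form AAGGTCA, the core bound by estrogen-related receptors, which overlaps the hexamer, was found in 2 (6.25%), those of *Acadm* and *Acsl6*, and in 4.72% of all windows. The NRF1 core GCGCANGCG was found in 4 (12.5%), those of *Etfb*, *Etfdh*, *Acadm* and *Ppara*, and in 6.25% of all windows. The GC box GGGCGG was found in 24 (75%) and in 35.7% of all windows. The members' windows had a median GC content of 61.0%, against 52.7% for all windows. A match to these letters is a description of the sequence and was not tested as a binding site.

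*Etfb* (chromosome 7, 43444083 to 43457800, plus strand) was the most highly expressed member. Its levels were 162, 180 and 178 FPKM in WT mice and 323, 135 and 334 FPKM in KO mice. KO 1 and KO 3 lay above all WT libraries and KO 2 lay below them, so the groups overlapped. The KO mean was 264 ± 112 FPKM and the WT mean 173 ± 9.63 FPKM (SD, n = 3), a ratio of 1.52, and the log2 fold change of 0.49 (SE 0.33) did not pass the test (limma, unadjusted p = 0.172, adjusted p = 0.851).

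*Etfa*, which encodes the partner α subunit, was measured at 56.3, 47.3 and 44.3 FPKM in WT and 82.1, 46.3 and 76.0 FPKM in KO mice. Again KO 1 and KO 3 were the highest libraries and KO 2 lay within the WT range. Its log2 fold change was 0.42 (SE 0.25; limma, unadjusted p = 0.117, adjusted p = 0.841). *Etfdh* was at 29.6, 22.4 and 26.7 FPKM in WT and 32.8, 24.6 and 32.6 FPKM in KO mice, a log2 fold change of 0.18 (SE 0.21). The ratio of *Etfb* to *Etfa* within a library was 3.57 ± 0.603 in WT and 3.75 ± 0.76 in KO mice (SD, n = 3), a difference smaller than either SD.

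Among the genes of uptake and binding, all 3 had positive log2 fold changes, and this step had the largest median of the 9, 0.67. That median ranged from 0.47 without KO 1 to 1.20 without KO 2. *Fabp4* passed the filter on low values only through the KO group, so its higher KO mean was fixed in advance. Of the 3 genes, only *Fabp3* and *Cd36* were free to go either way, and the count and median of the step carry that limit. *Fabp3* (chromosome 4, 130308595 to 130315463, plus strand), a cytosolic fatty acid binding protein of heart, muscle and brain, was at 41.6, 71.4 and 80.3 FPKM in WT and 131, 46.9 and 157 FPKM in KO mice. KO 1 and KO 3 exceeded every WT library, whereas KO 2 lay near the lowest of them. Its log2 fold change was 0.67 (SE 0.42; limma, unadjusted p = 0.146, adjusted p = 0.848). The list of heart and skeletal muscle markers summed to 3.52 to 8.64 FPKM in WT and 3.93 to 9.54 FPKM in KO libraries. *Cd36*, a membrane receptor for long-chain fatty acids, was low, at 5.44, 0.991 and 2.11 FPKM in WT and 5.97, 3.38 and 3.40 FPKM in KO mice (log2 fold change 0.59, SE 0.43). Without WT 1, its highest WT library, the log2 fold change was 1.04 (limma, unadjusted p = 0.0237, adjusted p = 0.963), and without WT 2, its lowest, it was 0.20.

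*Fabp4* (chromosome 3, 10204088 to 10208576, minus strand) encodes a fatty acid binding protein of adipocytes, macrophages and some capillary endothelium. It was listed at 0, 0 and 1.67 FPKM in WT mice, against 9.82, 4.17 and 0.723 FPKM in KO mice. KO 1 and KO 2 were above every WT library, and KO 3 was below WT 3. The log2 fold change was 1.72 (SE 0.65; limma, unadjusted p = 0.0249, adjusted p = 0.841; exact permutation p = 0.2). Since the gene was tested only because its KO values were high, these p-values are no support for a difference. The unadjusted limma p was 0.00187 without KO 3, 0.0115 without WT 3 and between 0.0692 and 0.121 when WT 1, WT 2, KO 1 or KO 2 was left out instead. Of the adipocyte markers, *Adipoq* and *Lep* were at 0 in all 6 libraries, and the whole list summed to 0 to 0.554 FPKM in WT mice and to 0 in every KO library. No list of macrophage markers was examined, and microglia markers summed to 144 to 161 FPKM in WT and 123 to 142 FPKM in KO libraries.

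In the ketone body group, *Oxct1* (chromosome 15, 4026383 to 4155344, plus strand), the enzyme that activates acetoacetate for use as fuel, was at 52.9, 48.0 and 50.7 FPKM in WT and 62.4, 54.6 and 64.5 FPKM in KO mice. Every KO library was above every WT library, although KO 2 exceeded WT 1 by little. The means were 50.5 ± 2.43 and 60.5 ± 5.22 FPKM (SD, n = 3), a ratio of 1.20, and the log2 fold change of 0.25 (SE 0.18) did not pass (limma, unadjusted p = 0.196, adjusted p = 0.867; exact permutation p = 0.1).

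*Acat1*, which cleaves acetoacetyl-CoA, was at 29.7, 32.2 and 32.0 FPKM in WT and 32.4, 20.6 and 34.7 FPKM in KO mice, with KO 2 the lowest library and a log2 fold change of −0.13 (SE 0.23). *Bdh1*, which oxidizes β-hydroxybutyrate, ranged from 14.2 to 22.01 FPKM in WT and from 14.6 to 30.6 FPKM in KO mice, a log2 fold change of 0.26 (SE 0.28). The median of the 3 ketone body genes was 0.25, and −0.0051 without KO 3.

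The synthetases of the activation step had a median log2 fold change of −0.05, and 1 of the 5 was higher in KO mice. Leaving out 1 library gave medians of −0.14 to 0.051, positive without WT 1, WT 3, KO 1 or KO 3. *Acsl6*, a brain isoform, was at 30.3, 17.7 and 29.4 FPKM in WT and 29.5, 28.2 and 26.2 FPKM in KO mice, and WT 2 was the library apart from the rest (log2 fold change 0.15, SE 0.24). *Acsl1* was at 24.9, 21.1 and 15.9 FPKM in WT and 17.0, 19.3 and 18.9 FPKM in KO mice, all 3 KO libraries lying inside the WT range (log2 fold change −0.14, SE 0.22). The log2 fold changes of *Acsl3*, *Acsl4* and *Acsl5* were −0.05, −0.06 and −0.04. *Acsl3* varied from 12.1 to 23.2 FPKM among WT libraries and from 14.8 to 25.6 FPKM among KO libraries.

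For the carnitine shuttle, 4 of 5 genes had positive log2 fold changes, with a median of 0.09. The direction did not hold without WT 3, when 1 of the 5 was positive (median −0.082), nor without KO 1 or KO 3, when 2 were (medians −0.033 and −0.016), and without KO 2 the median was 0.36. *Cpt1a* (chromosome 19, 3322334 to 3385733, plus strand) encodes the carnitine palmitoyltransferase of the outer mitochondrial membrane that controls entry of long chains. Its levels were 46.2, 43.0 and 46.4 FPKM in WT and 40.8, 26.8 and 67.7 FPKM in KO mice. The group means were alike, 45.2 ± 1.91 and 45.1 ± 20.8 FPKM (SD, n = 3), while the KO libraries lay on both sides of the WT range (log2 fold change −0.10, SE 0.30; limma, unadjusted p = 0.74).

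The brain isoform *Cpt1c* was at 22.8, 20.5 and 18.2 FPKM in WT and 24.1, 27.2 and 16.7 FPKM in KO mice (log2 fold change 0.12, SE 0.23). Its highest library was KO 2, and the ratio of *Cpt1a* to *Cpt1c* was 2.03, 2.09 and 2.56 in WT and 1.69, 0.983 and 4.05 in KO libraries. The muscle isoform *Cpt1b* was at 3.85, 3.32 and 0.239 FPKM in WT and between 2.23 and 3.13 FPKM in KO mice. *Slc25a20*, the carnitine carrier of the inner membrane, was at 35.2, 20.9 and 21.97 FPKM in WT and 34.03, 18.3 and 31.6 FPKM in KO mice (log2 fold change 0.09, SE 0.29), and *Cpt2*, which restores the acyl-CoA inside, ranged from 11.6 to 16.3 and from 8.77 to 22.6 FPKM.

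The acyl-CoA dehydrogenases catalyze the first oxidation, each on its own range of chain lengths. *Acadvl*, for very long chains, was at 58.7, 59.4 and 52.6 FPKM in WT and 54.2, 42.8 and 75.8 FPKM in KO mice (log2 fold change −0.02, SE 0.23). *Acadm* (chromosome 3, 153922357 to 153944632, minus strand) was at 47.9, 40.3 and 38.7 FPKM in WT and 52.6, 41.0 and 71.0 FPKM in KO mice, with KO 1 and KO 3 above every WT library. Its log2 fold change was 0.34 (SE 0.23; limma, unadjusted p = 0.174, adjusted p = 0.851).

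*Acadl*, for long chains, was at 40.4, 42.6 and 42.8 FPKM in WT and 59.0, 42.6 and 61.6 FPKM in KO mice (log2 fold change 0.35, SE 0.20; limma, unadjusted p = 0.117, adjusted p = 0.841). The KO 2 value of *Acadl* lay among the WT values and the other two KO values lay well above them. *Acads*, for short chains, had the opposite sign, with 7.10, 12.5 and 10.6 FPKM in WT and 5.21, 7.35 and 8.94 FPKM in KO mice (log2 fold change −0.43, SE 0.27; limma, unadjusted p = 0.146). *Acad9*, which also serves in the assembly of respiratory complex I, ranged from 5.73 to 8.06 FPKM in WT and from 6.90 to 8.34 FPKM in KO mice.

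Among the later steps of the cycle, 4 of 5 genes had positive log2 fold changes, with a median of 0.11. This direction turned with 1 library, since without KO 3 only 1 of the 5 was positive, with a median of −0.20, and without KO 2 all 5 were, with a median of 0.38. *Acaa2*, the mitochondrial thiolase, was at 87.2, 89.8 and 82.0 FPKM in WT and 112, 47.7 and 167 FPKM in KO mice. Its WT libraries lay close together, whereas its KO libraries lay far above and far below them (log2 fold change 0.16, SE 0.38; limma, unadjusted p = 0.682). *Hadha* (chromosome 5, 30118304 to 30155162, minus strand) was at 58.6, 57.7 and 56.0 FPKM in WT and 61.4, 40.6 and 96.1 FPKM in KO mice (log2 fold change 0.11, SE 0.28). *Hadhb* (chromosome 5, 30155248 to 30184593, plus strand), its divergent neighbor printed above, was at 45.4, 38.6 and 39.8 FPKM in WT and 45.7, 32.6 and 56.1 FPKM in KO mice (log2 fold change 0.08, SE 0.23). Both genes were lowest in KO 2 and highest in KO 3. The ratio of *Hadha* to *Hadhb* was 1.40 ± 0.102 in WT and 1.44 ± 0.245 in KO mice (SD, n = 3). *Hadh* and *Echs1*, the short-chain dehydrogenase and the enoyl-CoA hydratase, had log2 fold changes of −0.14 (SE 0.21) and 0.22 (SE 0.21).

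Each of the 3 auxiliary enzymes had a positive log2 fold change, with a median of 0.13, which was −0.039 without KO 3. *Eci1*, an enoyl-CoA isomerase, was at 38.9, 38.9 and 49.2 FPKM in WT and 92.6, 24.6 and 65.6 FPKM in KO mice, the KO libraries lying above and below the whole WT range (log2 fold change 0.33, SE 0.40; limma, unadjusted p = 0.426). Its relative *Eci2* was at 58.3, 60.0 and 49.6 FPKM in WT and 66.0, 42.9 and 80.6 FPKM in KO mice (log2 fold change 0.13, SE 0.25). *Decr1*, the dienoyl-CoA reductase, ranged from 13.4 to 23.5 FPKM in WT and from 15.5 to 23.0 FPKM in KO mice.

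Both PPAR receptors had negative log2 fold changes, with a median of −0.35, which was −0.20 without KO 2 and −0.60 without WT 3. Without WT 1, *Ppara* turned to 0.010 and *Ppard* stayed negative. *Ppard*, the broadly expressed PPARδ, was at 30.6, 35.3 and 19.8 FPKM in WT and 22.7, 15.9 and 20.8 FPKM in KO mice. WT 1 and WT 2 were above every KO library and WT 3 was not (log2 fold change −0.48, SE 0.25; limma, unadjusted p = 0.0836, adjusted p = 0.841). Without WT 3 its unadjusted limma p was 0.0179, and the lowest adjusted limma p of the step was 0.968. Since WT 3 was the WT library inside the KO range, a smaller p without it is no support for a difference. *Ppara*, the receptor best known for liver fatty acid oxidation, was low, at 2.38, 1.496 and 0.729 FPKM in WT and 0.738, 0.672 and 2.15 FPKM in KO mice (log2 fold change −0.22, SE 0.42).

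The 3 KO libraries did not move together. Relative to the mean of the WT libraries on log2(FPKM + 1), the median of the 34 genes was 0.24 in KO 1, −0.28 in KO 2 and 0.36 in KO 3, against 0.01, −0.02 and 0.00 for all genes tested. In KO 1, 20 of the 34 genes (58.8%) lay above every WT library, as did 31.1% of all genes. In KO 3 the count was 19 (55.9%, against 29.2%), and in KO 2 it was 5 (14.7%, against 28.7%). Conversely, 15 genes (44.1%) lay below every WT library in KO 2, against 32.6% of all genes, while 4 (11.8%, against 28.7%) did so in KO 1 and 2 (5.88%, against 27.98%) in KO 3. By step, the median of electron transfer was 0.73 in KO 1, −0.08 in KO 2 and 0.62 in KO 3, and that of the later steps of the cycle was 0.15, −0.45 and 0.44. Activation had another order, with −0.24, 0.08 and −0.10.

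Choroid plexus markers moved with this split of the KO libraries. The 5 markers summed to 3362, 2959 and 2901 FPKM in WT mice and to 8898, 2986 and 10720 FPKM in KO mice. All 5 had a higher mean in KO mice, 1 of them with an unadjusted p under 0.05, and none was at 0. *Ttr*, the transthyretin gene that defines choroid plexus epithelium, was at 2628 to 3093 FPKM in WT mice and at 8262, 2771 and 9787 FPKM in KO mice. Smooth muscle markers summed to 561, 225 and 248 FPKM in WT mice and to 754, 257 and 381 FPKM in KO mice, with KO 1 and WT 1 the highest and all 4 genes having a higher mean in KO mice. Neuron markers moved with the split in the other direction, summing to 243, 398 and 517 FPKM in WT mice and to 243, 436 and 192 FPKM in KO mice. Oligodendrocyte markers summed to 575, 445 and 499.6 FPKM in WT mice and to 490.3, 441 and 266 FPKM in KO mice, with KO 3 far below the rest. The libraries also differed in trends on gene properties. Across 13726 genes, the Spearman correlation of a library's deviation with transcript length was 0.015 to 0.051 in WT mice and −0.296, 0.289 and −0.139 in the KO libraries, and that with GC content was 0.084 to 0.313 in WT and −0.137, −0.247 and −0.028 in KO libraries. The part of these markers and trends in the differences between KO libraries was not tested. When transcript length and GC content were corrected for, the median log2 fold change of the 34 genes was 0.08.

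**Figure D2:**
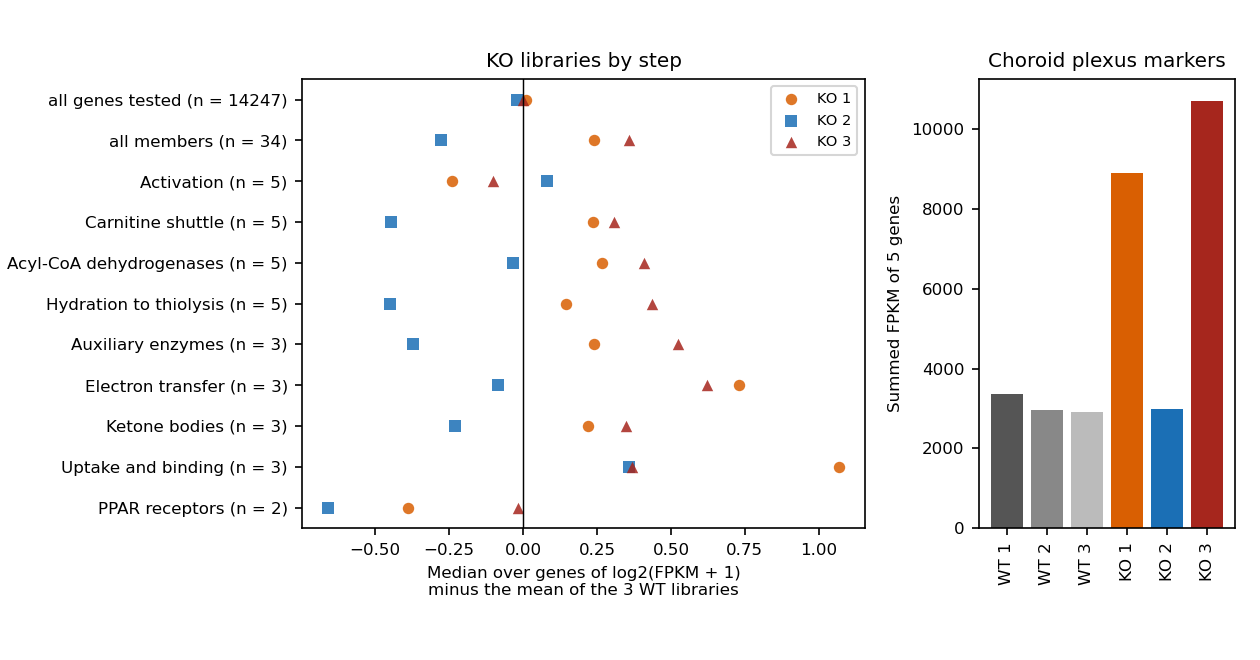
Left, median over genes of log2(FPKM + 1) in each KO library minus the mean of the 3 WT libraries, for all genes tested, all members and each step, with the number of genes in brackets. Right, summed FPKM of 5 choroid plexus markers in each library. KO 1 and KO 3 lie at 0.24 and 0.36 for all members and have marker sums of 8898 and 10720, and KO 2 lies at −0.28 with a sum of 2986.

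The values were therefore also computed without KO 2, a choice of library made with its values known. KO 2 was the lowest of the 6 libraries in 15 of the 34 genes (44.1%, against 25.0% of all genes). Its removal favored higher values, so the p-values given here are a description and no support for a difference. Without KO 2, 27 of the 34 genes had positive log2 fold changes, with a median of 0.32 against 0.00 for all genes. At an unadjusted p under 0.05, 7 members (20.6%) were higher and 0 were lower, against a background of 7.31% of genes higher and 5.83% lower. No member passed the adjusted threshold, which 4 genes (0.0281%) passed in all. The 7 were *Etfb* with a log2 fold change of 0.92 (SE 0.14; limma, unadjusted p = 1.79e-04, adjusted p = 0.117), *Fabp3* with 1.20 (SE 0.27), *Eci1* with 0.87 (SE 0.20), *Etfa* with 0.68 (SE 0.17), *Acaa2* with 0.66 (SE 0.19), *Acadm* with 0.53 (SE 0.19) and *Acadl* with 0.51 (SE 0.15). Their adjusted limma p-values ranged from 0.117 to 0.318. Leaving out KO 3 instead gave log2 fold changes of 0.27 for *Etfb*, 0.34 for *Fabp3*, 0.18 for *Eci1*, 0.32 for *Etfa*, −0.23 for *Acaa2*, 0.14 for *Acadm* and 0.25 for *Acadl*. With length and GC content corrected in addition, 6 members (17.6%) had an unadjusted p under 0.05, all higher, against 6.4% of the 13726 genes fitted higher and 4.26% lower. *Hadha* was among the 6, and *Acadl* and *Acadm* were not. The 2 libraries left are those with the high choroid plexus markers.

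**Figure D3:**
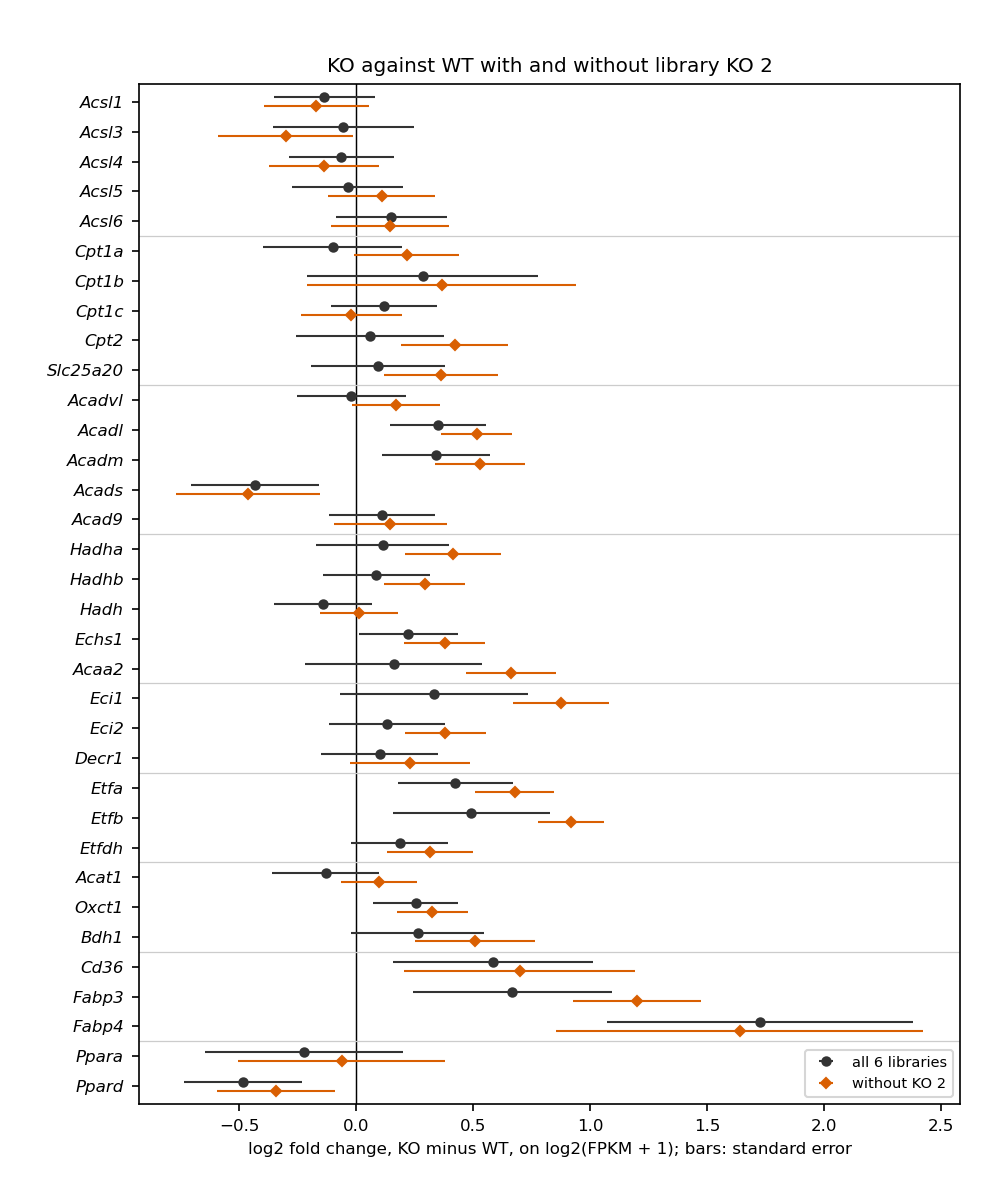
Log2 fold change (KO minus WT, on log2(FPKM + 1)) of each of the 34 genes with all 6 libraries (black circles) and without KO 2 (orange diamonds), with bars for the standard error. *Etfb* moves from 0.49 to 0.92 and *Fabp3* from 0.67 to 1.20 when KO 2 is left out, and *Cpt1a* moves from −0.10 to 0.22.

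Further genes of fatty acid and ketone metabolism, 71 of which were tested, were divided evenly, with 34 higher and 37 lower in KO mice and a median log2 fold change of −0.01. Without KO 2 this list too leaned higher, with 47 higher and 24 lower and a median of 0.11, and without KO 3 it leaned lower, with 28 and 43 and a median of −0.10. At an unadjusted p under 0.05, 4 were higher and 2 lower (8.45% in all), against a background of 2.77% of genes higher and 3.11% lower (5.88% in all). With so few genes, this count and those by list below are a description. After adjustment 0 passed, each of the 6 having an adjusted limma p of 0.841. Of 18 peroxisomal genes, 2 were higher. *Acox2*, a peroxisomal oxidase of branched chains and bile acid intermediates, was at 3.30, 0.740 and 1.45 FPKM in WT and 3.55, 3.38 and 7.22 FPKM in KO mice (log2 fold change 1.05, SE 0.40; limma, unadjusted p = 0.0262). Its libraries did not overlap, although WT 1 lay close to KO 1 and KO 2. *Hacl1*, of α-oxidation, was at 5.53, 3.996 and 3.64 FPKM in WT and 9.84, 5.02 and 9.81 FPKM in KO mice, with KO 2 inside the WT range.

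Of 18 other mitochondrial genes, 1 was higher. This was *Acad8*, the isobutyryl-CoA dehydrogenase of valine breakdown, at 13.3, 11.3 and 15.5 FPKM in WT and 26.8, 14.6 and 28.9 FPKM in KO mice, with KO 2 again inside the WT range (log2 fold change 0.72; limma, unadjusted p = 0.0244). Of 17 genes of fatty acid supply, 1 was lower. *Slc27a4*, a fatty acid transport protein, was at 24.2, 33.2 and 30.3 FPKM in WT and 17.0, 22.9 and 19.9 FPKM in KO mice, without overlap (log2 fold change −0.53; limma, unadjusted p = 0.0301). Of 12 other genes of PPAR and ERR control, 1 was higher, the receptor gene *Esrra*, at 16.6, 7.94 and 13.3 FPKM in WT and 21.3, 21.7 and 15.3 FPKM in KO mice (log2 fold change 0.63; limma, unadjusted p = 0.0471). None of the 6 other ketone body genes passed the unadjusted threshold.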

How the data were processed

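Brain microvessel RNA of 3 WT and 3 TEKCRIF1 KO animals was extracted with TRIzol, and directional paired-end libraries were sequenced, 1 per mouse. The authors checked reads with FastQC, trimmed them with FASTX_Trimmer and BBMap, mapped them with TopHat (mm10 per the submitters' processing notes) and deposited FPKM values for 23183 symbols. Read counts, needed for the DESeq2 comparison the authors ran, were not used here, and no scaling between libraries is stated.

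Libraries were grouped by labelled genotype. FPKM values were analyzed as log2(FPKM + 1), a scale that understates changes of low genes, with limma 3.58.1 in R 4.3.3 and a trended variance. The 14247 genes whose 6 libraries averaged 1 FPKM or more were tested, with Benjamini-Hochberg adjustment over all of them, and single genes were tested by exact two-sided permutation. The fit was tested on simulated data. Depth was estimated from the spacing of low FPKM values and annotated lengths, and floors cover counting error only. Gene positions, lengths and GC contents came from GENCODE M21 (GRCm38), and promoters from RefSeq. Summaries were made with pandas 2.3.3 and numpy 2.4.6 (Python 3.11.15).

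The members and lists were chosen with earlier results of these data known. All members were described. Values per library were given for members with an unadjusted p under 0.05 or no overlap and for the 2 highest of each step, with further members shown beside them, and other pathway genes were named at an unadjusted p under 0.05. Among the latter, 1 is not reported here, although the counts include it. Alternatives were no filter, a minimum of 5 FPKM, a pseudocount of 0.1, median scaling, quantile normalization, corrections for GC content and for length and GC content (loess, span 0.3), a replicate block, no trended variance and leaving out each library. The last correction without KO 2 was added after seeing the data.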

Additional observations from a re-analysis of the deposited data

How the results depend on the processing

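No member passed after adjustment under any of the 16 alternatives. Over all genes, 0 passed, and 0 to 4 did so when 1 library was left out. At an unadjusted limma p under 0.05 there were 838 genes, and 450 to 1871 without 1 library, with 450 without WT 2, 510 without KO 1 and 1871 without KO 2. The count was 1463 with the length and GC correction without KO 2. For the members it was 1, 0 at a minimum mean of 5 FPKM, 0 to 7 without 1 library and 6 with the length and GC correction without KO 2. For the other pathway genes it was 6, 1 to 14 without 1 library and 15 with that correction without KO 2. The members' median log2 fold change ranged from 0.02 to 0.32 without 1 library.

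Of 540 member values over 16 alternatives, 45 changed sign, in 21 members, and 13 members kept their sign throughout. Members that kept their sign still changed in size when 1 library was left out. The ranges were 0.079 to 0.32 for *Etfdh*, −0.64 to −0.25 for *Acads*, 0.0077 to 0.22 for *Acad9* and 0.10 to 0.38 for *Echs1*. For *Oxct1* it was 0.21 to 0.32, for *Ppard* −0.72 to −0.32 and for *Fabp4* 1.10 to 2.43. Leaving out 1 library gave log2 fold changes of −0.30 to 0.0038 for *Acsl1*, −0.35 to 0.10 for *Acsl3*, −0.14 to 0.051 for *Acsl4*, −0.26 to 0.11 for *Acsl5*, −0.092 to 0.28 for *Acsl6*, −0.44 to 0.22 for *Cpt1a*, −0.34 to 0.64 for *Cpt1b*, −0.021 to 0.31 for *Cpt1c*, −0.22 to 0.42 for *Cpt2* and −0.069 to 0.36 for *Slc25a20*. The ranges were −0.24 to 0.17 for *Acadvl*, −0.20 to 0.41 for *Hadha*, −0.091 to 0.29 for *Hadhb*, −0.29 to 0.013 for *Hadh*, −0.23 to 0.66 for *Acaa2*, −0.061 to 0.87 for *Eci1*, −0.066 to 0.38 for *Eci2*, −0.083 to 0.30 for *Decr1*, −0.27 to 0.10 for *Acat1*, −0.0051 to 0.51 for *Bdh1* and −0.52 to 0.010 for *Ppara*. GC correction gave 0.050 for *Acadvl*, −0.10 for *Hadhb* and −0.0031 for *Decr1*. The length and GC correction gave 0.051 for *Acadvl* and −0.088 for *Hadhb* and, without KO 2, 0.10 for *Acsl5*, 0.27 for *Cpt1a*, 0.16 for *Acadvl*, 0.04 for *Hadh* and 0.012 for *Acat1*. The cause was not tested.

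The split of genes with an unadjusted p under 0.05 was 395 higher and 443 lower among the 14247 genes. It was 335 and 304 with GC correction and 364 and 317 with the length and GC correction, both fitted on the 13726 genes with a length, so the correction and the smaller set were not separated. Same-numbered libraries share a number in the titles, and no other link is stated. Their deviations correlated at 0.037, 0.027 and 0.002, within the range of −0.073 to 0.046 of the other pairs. With 3 libraries a group, such values cannot exclude a shared origin. With the replicate block, 871 genes and 1 member had an unadjusted p under 0.05. KO 2 had the lowest estimated depth, 6400000 fragments, and its floor of 3 fragments on 1 kb was the highest, 0.469 FPKM.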
